A study of Mus musculus with 4 samples.

Results

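Mef2D occupancy was described around 9 genes that build the muscle sarcomere and its cytoskeleton: Ttn, Neb, Des, Acta1 and the skeletal myosin heavy chain genes Myh1, Myh2, Myh3, Myh4 and Myh8. Regions and peaks were taken by position alone, as those that overlapped 5 windows of the mouse build mm9. Each window was drawn with about 50 kb on either side of a gene or gene cluster. The genes themselves were chosen with earlier results of these data known. Whether that choice shaped the contrasts with the whole table or whole lists below was not tested. The windows held 41 of the 19749 regions in the authors' combined table, 25 of the 8872 peaks listed for Mef2Da1 and 36 of the 10105 listed for Mef2Da2. Proximity does not show which gene a region acts on.

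The data are chromatin immunoprecipitation with sequencing (ChIP-seq) from C2C12 cells, a mouse myoblast line that forms myotubes, taken after 5 days in low-serum medium with insulin and transferrin. There were 4 groups with 1 library each. Mef2Da1 and Mef2Da2 are libraries made with antibodies raised against peptides of the endogenous Mef2Da1 and Mef2Da2 splice isoforms of Mef2D. Mef2Da1-BLOCK and Mef2Da2-BLOCK are libraries made with those antibodies after blocking with peptide. All 4 came from the same cell line and culture scheme. With no replicates, values carry no error and differences between libraries were not tested. Read depth was unknown, and height means the maximal coverage of a region in a library, not scaled to depth.

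MEF2 proteins are transcription factors that bind an AT-rich DNA element as dimers and act with myogenic bHLH factors, which bind E-boxes, in activating muscle genes. Alternative splicing of Mef2d exchanges an exon near the DNA-binding part, and the Mef2Da2 form belongs to differentiating muscle. The sarcomere is the contractile unit: myosin heavy chains are the motor of the thick filament, skeletal alpha-actin (Acta1) forms the thin filament, nebulin (Neb) runs along the thin filament, titin (Ttn) spans from the Z-disc to the M-band, and desmin (Des) is the intermediate filament that ties myofibrils together.

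The promoters of the 4 genes whose start could be placed approximately are given first, since each had a combined region within about 1 kb of that place. RefSeq promoter windows of the build GRCm38.p6 run from 250 bases before to 50 bases after the annotated start, and 8 of the 9 members matched (Ttn, Des, Acta1, Myh1, Myh2, Myh3, Myh4 and Myh8). Their GRCm38.p6 coordinates cannot be set against the mm9 positions of the regions. Capitals mark a loose MEF2 match (CTA, any 4 bases, TAG) in Ttn and Des, a CArG box (the element of serum response factor) in Acta1 and an E-box CANNTG in Myh3. The windows are Ttn chr2:76982498-76982797 (minus strand), Des chr1:75360042-75360341 (plus strand), Acta1 chr8:123894726-123895025 (minus strand) and Myh3 chr11:67078050-67078349 (plus strand).
Ttn: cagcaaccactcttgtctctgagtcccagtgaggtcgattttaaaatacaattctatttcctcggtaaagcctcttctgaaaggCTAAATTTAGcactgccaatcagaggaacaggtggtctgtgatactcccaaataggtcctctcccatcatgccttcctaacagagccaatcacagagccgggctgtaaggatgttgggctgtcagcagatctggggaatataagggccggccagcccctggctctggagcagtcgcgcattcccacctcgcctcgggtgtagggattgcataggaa
Des: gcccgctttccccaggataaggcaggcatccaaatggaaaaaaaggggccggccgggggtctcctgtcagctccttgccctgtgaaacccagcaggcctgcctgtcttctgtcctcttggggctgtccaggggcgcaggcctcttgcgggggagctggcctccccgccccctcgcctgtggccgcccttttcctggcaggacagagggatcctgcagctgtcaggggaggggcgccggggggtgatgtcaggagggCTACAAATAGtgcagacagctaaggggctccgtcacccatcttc
Acta1: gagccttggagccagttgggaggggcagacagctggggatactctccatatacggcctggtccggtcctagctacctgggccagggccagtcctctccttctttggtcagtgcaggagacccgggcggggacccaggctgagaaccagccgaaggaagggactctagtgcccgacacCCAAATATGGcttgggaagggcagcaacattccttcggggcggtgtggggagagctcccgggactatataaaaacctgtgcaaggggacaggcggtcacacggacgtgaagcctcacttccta
Myh3: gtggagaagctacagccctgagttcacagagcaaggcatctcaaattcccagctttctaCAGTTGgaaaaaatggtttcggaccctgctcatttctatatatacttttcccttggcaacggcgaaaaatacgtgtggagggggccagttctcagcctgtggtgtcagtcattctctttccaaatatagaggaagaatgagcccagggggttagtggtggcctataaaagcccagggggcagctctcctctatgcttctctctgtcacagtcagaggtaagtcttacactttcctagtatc

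Each motif searched reads the same on both strands. The loose MEF2 form was in 2 of the 8 members' promoters (Ttn and Des) and in 3.69% of all 32851 promoters. In Ttn the match CTAAATTTAG began 166 bases before the start and was also a full MEF2 consensus. The Des match CTACAAATAG began 6 bases after the start and was not. The full MEF2 consensus, a search added after the first results, was in 4 of 8 promoters: that of Ttn and those of the adult and perinatal myosin genes Myh1, Myh4 and Myh8, which all carried TTATTTATAG. It was in 3.19% of all promoters. Its matches overlap those of the loose form where the outer bases allow. A CArG box was in Acta1, 73 bases before the start, and in Myh4, against 1.63% of all promoters. E-boxes were in 6 of 8, near the 72.3% of all promoters. Of 31 other sarcomere genes, 22 had a promoter in the table, with 30 promoters in all. The loose MEF2 form was in 3 of these 22: Flnc (an actin cross-linker), Ldb3 and Myoz2 (both Z-disc proteins). It was in 13.3% of their promoters, against 3.69% of all. The full MEF2 consensus was in 1, Myoz2 (3.33% of their promoters, near the 3.19% of all). A CArG box was in 5: Actc1, Ldb3, Myh13, Myom1 and Nebl. Their mm9 positions were not used here. These matches describe letters in short windows and do not show binding.

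Regions lay close together around these genes, and most carried peaks of both isoforms. The 5 windows cover 1325 kb and held 30.9 regions per Mb, against 8.25 per Mb over the stretches of the 19 autosomes between their first and last region. Density was 77.7 per Mb in the Acta1 window, 64.8 in Des, 32.2 in Neb, 25.4 in the myosin cluster and 13.2 in Ttn. The 2 densest windows were also the shortest, at 103 kb for Acta1 and 108 kb for Des, and consist mostly of the 50 kb margins. Without the margins, the windows held 2 of 8 regions at Acta1, 1 of 7 at Des and 2 of 5 at Ttn. They held 8 of 11 at Neb and 9 of 10 in the myosin cluster. Most regions counted for Acta1, Des and Ttn thus lay in the margins, beside the gene. Of 36 gaps between neighbouring regions of the same window, 13 were under 2 kb (36.1%, against 11.9% of the gaps over the whole table). Gaps from a window's outermost regions to neighbours outside it, all longer than 2 kb, are left out of the 36. The whole table counts such gaps, so the share in the windows is raised by this cut.

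Of the 41 regions, 22 contained listed peaks of both isoforms (53.7%, against 26.6% of all combined regions). A Mef2Da2 peak alone was in 11 (26.8%, against 20.1%), a Mef2Da1 peak alone in 2 (4.88%, against 15.2%) and no listed peak in 6 (14.6%, against 38.1%). The lists hold peaks whose −log10 p, as the authors give it, is at least 6.01. Both isoforms reached a −log10 p of 10 in 10 of the 41 regions, against 9.70% of all regions. These 10 regions were spread over all 5 windows.

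Every one of the 41 regions was higher with the open antibody than with the blocked antibody in both pairs of libraries, as were 96.7% of all combined regions. Mef2Da1 heights ran from 14 to 148 with a median of 49, and Mef2Da1-BLOCK heights from 8 to 30 with a median of 17. Mef2Da2 heights ran from 24 to 190 with a median of 54, and Mef2Da2-BLOCK heights from 2 to 24 with a median of 11. The open and blocked ranges overlapped at their lower ends for Mef2Da1 and met at 24 for Mef2Da2. Without scaling and with a pseudocount of 1, Mef2Da1 was at least 2-fold above its blocked control in 35 regions (85.4%, exact 95% binomial interval 70.8 to 94.4, against 64.7% of all regions). Mef2Da2 was so in 38 (92.7%, 80.1 to 98.5, against 75.0%). The intervals cover counting error only and treat regions as independent. Scaled to total height, the shares were 22.0% (against 8.13% of all regions) and 34.1% (against 16.2%), and the table lists only regions that already had signal.

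**Figure D1:**
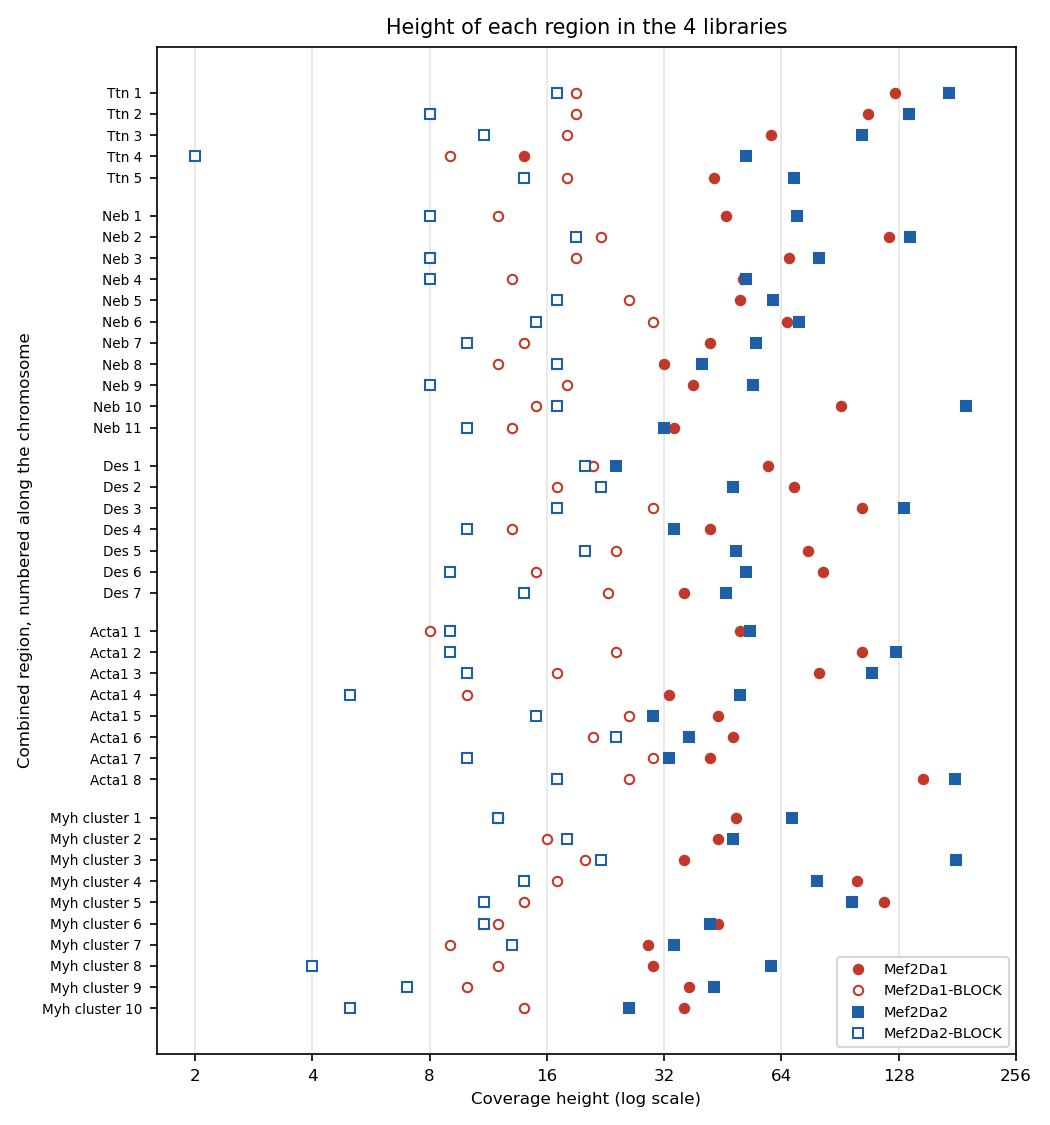
Coverage height (horizontal, log scale) of each of the 41 combined regions (rows, numbered along the chromosome in each window) in the 4 libraries, 1 point a library. Filled points (Mef2Da1 circles, Mef2Da2 squares) lie to the right of the open points of the same colour and shape (blocked controls) in every row.

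Titin is a giant scaffold of the sarcomere, and its window had 5 regions, all near or beyond the gene's approximate 5′ end. Where the window without its margins equalled the gene's RefSeq length to within 1 kb (Ttn, Des and Acta1), its 5′ edge was taken as the approximate gene start. That edge is rounded and good to no better than about 1 kb, so it cannot be said which of several close regions spans a start. Near the Ttn start, chr2:76820334-76821594 had a height of 107 with Mef2Da1 and 136 with Mef2Da2, against 19 and 8 in their blocked controls. Beside it, chr2:76819714-76820216 had 125 and 172 against 19 and 17. The third, at chr2:76822405-76823136, had 60 and 103 against 18 and 11. With no scaling, both isoforms were above their blocked controls at all 3, with listed peaks of each. The fold over the blocked control was 5.40 for Mef2Da1 and 15.2 for Mef2Da2 at the first of these. At the third it was 3.21 for Mef2Da1 and 8.67 for Mef2Da2. The −log10 p at the first was 18.4 for Mef2Da1 and 23.1 for Mef2Da2.

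Farther upstream of Ttn, toward the neighbouring gene Ccdc141, only Mef2Da2 had listed peaks. At chr2:76851525-76851844, 30.5 kb from the start, Mef2Da2 reached 52 over a control of 2, and Mef2Da1 reached 14 over a control of 9. There Mef2Da1 was near its control, with a fold of 1.50 and a −log10 p of 1.18. At chr2:76858412-76859164 the heights were 43 for Mef2Da1 and 69 for Mef2Da2, against 18 and 14. A further region lay 0.3 kb beyond the window's edge with heights of 59 and 88, and is not counted. From the other end of the window to the first region, 327.7 kb, which take in nearly all of the gene body, held no combined region and no listed peak.

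**Figure D2:**
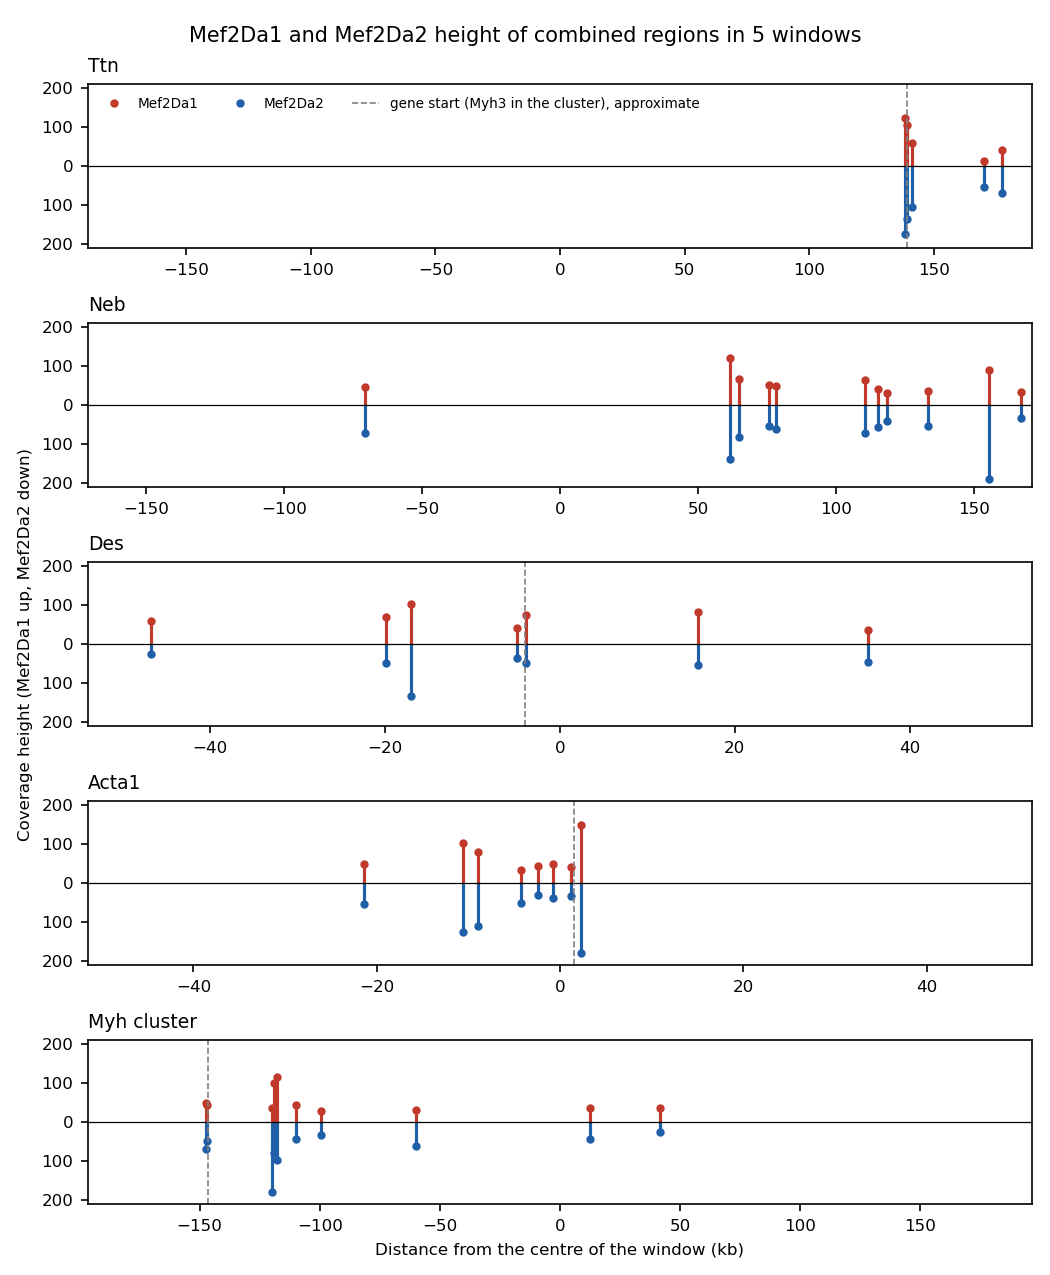
Height of Mef2Da1 (up, red) and Mef2Da2 (down, blue) at each combined region against its distance in kb from the centre of the window, 1 panel a window, with the approximate gene start dashed where it could be placed. Regions gather near the start of Ttn and around Acta1, while 10 of the 11 of Neb lie in the upper part of its window and 1 lies alone in the lower part.

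Nebulin, the thin filament protein, had the most regions, 11, of which 6 held peaks of both isoforms, 4 a Mef2Da2 peak alone and 1 none. Its start was not placed, because the window without its margins was longer than the RefSeq gene. The leading region, chr2:52268080-52268595, had a height of 91 with Mef2Da1 and 190 with Mef2Da2, against 15 and 17 in their controls. This was the highest Mef2Da2 value of the 41 regions, with a −log10 p of 36.0 against 13.4 for Mef2Da1. The region lay in the margin of the window, on the side of the neighbouring gene Arl5a, and not in the window without its margins. Next was chr2:52174453-52175079, with 121 and 137 against 22 and 19. There the isoforms were nearly level with no scaling, with a −log10 p of 21.2 for Mef2Da1 and 23.3 for Mef2Da2. Scaled to the totals of the blocked controls, the log2 ratio of Mef2Da2 to Mef2Da1 was 0.78.

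Other Neb regions were lower. At chr2:52177413-52178120 the heights were 67 for Mef2Da1 and 80 for Mef2Da2, against 19 and 8. At chr2:52223086-52223708 they were 66 and 71 against 30 and 15, and Mef2Da1 was 2.16-fold above a control that equalled the highest Mef2Da1-BLOCK value of the 41. The region chr2:52190640-52192004, which held 2 listed Mef2Da2 peaks, had 50 and 61 against 26 and 17. Its Mef2Da1 fold over the control was 1.89. At chr2:52042275-52042751, the sixth by summed −log10 p, Mef2Da2 alone had a peak, with 70 against 8, and Mef2Da1 had 46 against 12. This region stood by itself, 131.7 kb from the next, with no listed peak between. The remaining 5 had Mef2Da1 heights of 32 to 51 and Mef2Da2 heights of 32 to 55.

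Desmin's window had 7 regions, and Mef2Da1 was the higher isoform in 5 of them with total scaling but in 3 when scaled to the totals of the blocked controls. Near the approximate Des start, chr1:75356646-75357537 had a height of 75 with Mef2Da1 and 49 with Mef2Da2, against 24 and 20 in their controls. Listed peaks of both isoforms were there, with −log10 p of 10.9 and 7.75. The strongest region, chr1:75343427-75344388, lay 12.6 kb upstream, toward Dnpep, with 103 and 132 against 30 and 17. Beside it, chr1:75340420-75341884 had 69 and 48 against 17 and 22. On the other side, 19.5 kb downstream of the start and toward Speg, chr1:75376510-75377067 had 82 and 52 against 15 and 9. Speg, the next gene, encodes a striated muscle kinase.

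At the far upstream region of Des, chr1:75313622-75314908, Mef2Da1 reached 59 over a control of 21, and Mef2Da2 reached 24 over a control of 20. Mef2Da2 was thus 1.19-fold above its control, the lowest fold of the 41 regions for that isoform, and had no listed peak. The 2 other regions had 36 and 46 (chr1:75395302-75397147, a Mef2Da2 peak alone) and 42 and 34 (chr1:75355800-75356288, no listed peak). A listed Mef2Da1 peak at chr1:75367887-75368239, with a height of 65 and a −log10 p of 9.74, lay in no combined region, and no height of another library was at hand for it. It was the only such peak among the 61 listed in the 5 windows.

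Skeletal alpha-actin had 8 regions within its 103 kb window, 7 of them from 22.6 kb downstream of the approximate start up to about the start. The strongest, chr8:126419128-126420387, lay near the start, on the side of the neighbouring gene Nup133. Its height was 148 with Mef2Da1 and 179 with Mef2Da2, against 26 and 17 in their controls. By summed −log10 p (24.7 and 32.2) it ranked 232 of 19749 regions, the best rank among the 41. The next region, chr8:126418335-126419089, also near the start, was low, with 42 and 33 against 30 and 10. It held no listed peak, and its Mef2Da1 fold of 1.39 was the lowest of the 41 for that isoform. No more than 39 bp separated it from the strongest region.

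Downstream of Acta1, toward Ccsap, lay a pair of strong regions 435 bp apart. The first, chr8:126406337-126407538, had 103 with Mef2Da1 and 126 with Mef2Da2, against 24 and 9. The second, chr8:126407973-126409030, had 80 and 109 against 17 and 10. Both had peaks of both isoforms, and the Mef2Da2 fold over its control was 12.7 and 10.0. At chr8:126395829-126396394 the isoforms were nearly level with no scaling, with 50 and 53 against 8 and 9. Scaled to the totals of the blocked controls, the log2 ratio of Mef2Da2 to Mef2Da1 there was 0.68. Over the gene, chr8:126415757-126417639 had a Mef2Da1 peak alone, with 48 and 37 against 21 and 24. Mef2Da2-BLOCK had its highest value of the 41 regions there, and Mef2Da2 was 1.52-fold above it. The other 2 regions had heights of 33 and 50 (chr8:126412967-126413533, a Mef2Da2 peak alone) and 44 and 30 (chr8:126414596-126415665, no listed peak).

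The myosin heavy chain cluster holds Myh3 (embryonic), Myh2, Myh1 and Myh4 (adult fast) and Myh8 (perinatal) in that order, and had 10 regions. The lower edge of the window without its margin was taken as the approximate start of Myh3, with no length to check it against. The window is longer than the stretch from Myh3 to Myh8 with its margins, and Myh13 follows Myh8 in the gene order. Starts of the other myosin genes were not placed. Near that edge, chr11:66891366-66892010 had a height of 44 with Mef2Da1 and 48 with Mef2Da2, against 16 and 18 in their controls. Its neighbour 57 bp away, chr11:66890844-66891309, had 49 and 68 against 12 and 12. Both had peaks of each isoform, at modest −log10 p of 6.01 and 7.03 for Mef2Da1 and 7.40 and 11.0 for Mef2Da2.

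The strongest signal of the cluster was in 3 regions that began about 26.2 to 28.2 kb downstream of the edge taken as the Myh3 start and were 229 and 411 bp apart. At chr11:66920247-66921123 the heights were 117 with Mef2Da1 and 97 with Mef2Da2, against 14 and 11. This gave 7.87-fold over the blocked control for Mef2Da1, the largest of the 41, and 8.17-fold for Mef2Da2. At chr11:66919152-66919836 they were 100 and 79 against 17 and 14. At the third, chr11:66918240-66918923, Mef2Da2 stood far above Mef2Da1 in height: 180 against 36, with 22 and 20 in their controls. Mef2Da1 was 1.76-fold above its control there with a −log10 p of 4.56 and no listed peak, and Mef2Da2 had a −log10 p of 31.1. With total scaling Mef2Da1 was thus the higher isoform at 1 region and Mef2Da2 at another 229 bp away. Scaled to the totals of the blocked controls, Mef2Da2 was higher in all 10 regions of the cluster.

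Beyond these, the cluster had low regions. Mef2Da2 alone had a peak at chr11:66978384-66978898, with 60 against 4 in its control and Mef2Da1 at 30 against 12. It also had one at chr11:67050901-67051488, with 43 against 7, where Mef2Da1 was 37 against 10. The region chr11:66928170-66929027 had peaks of both at 44 and 42. The last 2, with no listed peak, had 29 and 34 (chr11:66938926-66939363) and 36 and 26 (chr11:67079694-67080316). The final 154.7 kb of the window held no combined region and no listed peak.

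Set against each other, the isoforms were within 2-fold at 36 of the 41 regions after scaling to total height. Mef2Da2 was at least 2-fold higher in 4 (against 7.03% of all regions) and Mef2Da1 in 1 (against 9.64%). The 4 were chr11:66918240-66918923 (4.98-fold), chr2:76851525-76851844 (3.60-fold), chr2:52268080-52268595 (2.11-fold) and chr11:66978384-66978898 (2.003-fold, and under 2-fold with no scaling). The 1 toward Mef2Da1 was chr1:75313622-75314908 (2.36-fold). It was under 2-fold when scaled to the totals of the blocked controls, a scaling that put 12 regions at least 2-fold toward Mef2Da2 (against 20.3% of all regions). The myosin region ranked 54 of 19749 in its ratio toward Mef2Da2.

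With total scaling Mef2Da2 was the higher isoform by any amount in 28 of 41 regions, against 40.0% of all regions. Scaled to the totals of the blocked controls it was higher in 38 of 41, against 73.3%. The total-scaled log2 ratio of Mef2Da2 to Mef2Da1 had a median of 0.28, against −0.17 over the whole table. These medians were 0.445 and 0.00 with median scaling, and 0.855 and 0.405 with heights scaled to the totals of the blocked controls. In regions with peaks of both isoforms and total scaling the medians were 0.24 in the windows and 0.03 in the whole table. By window and with total scaling, Mef2Da2 was higher in 5 of 5 regions of Ttn (median log2 ratio 0.70), 10 of 11 of Neb (0.31), 5 of 8 of Acta1 (0.20), 6 of 10 of the myosin cluster (0.19) and 2 of 7 of Des (−0.49). Scaled to the totals of the blocked controls, it was higher in 8 of 8 regions of Acta1, 10 of 10 of the myosin cluster, 11 of 11 of Neb and 5 of 5 of Ttn. For Des the side depended on scaling: Mef2Da2 was higher in 2 of 7 regions with no scaling and with median scaling, but in 4 of 7 when scaled to the totals of the blocked controls, where the median was 0.08. The difference between windows was not tested, since regions of a window come from the same libraries.

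**Figure D3:**
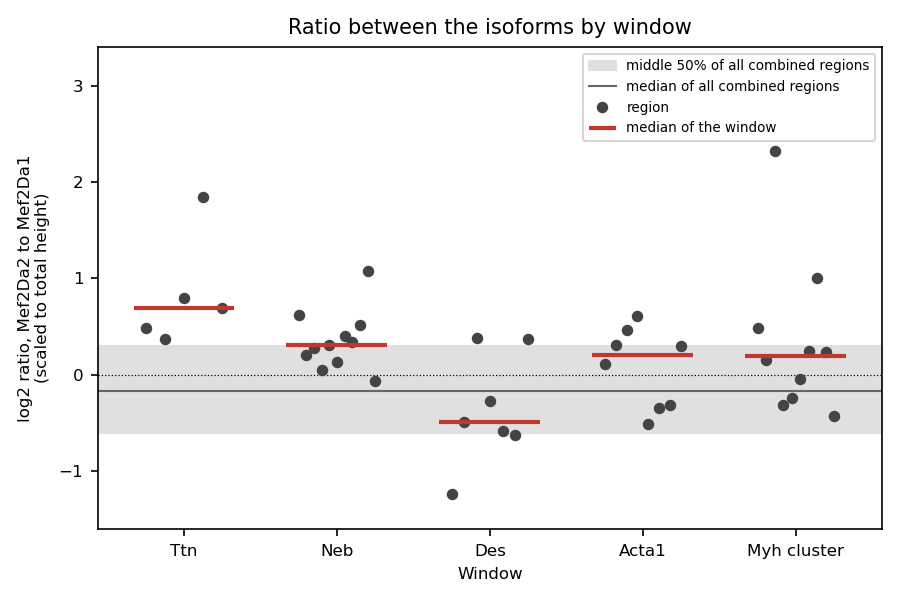
Log2 ratio of Mef2Da2 to Mef2Da1 height after scaling to total height (vertical) for each region (points) by window, with window medians (red) and the median and middle 50% of all combined regions (grey). The Ttn points all lie above 0 and the Des median lies below it, a side that changes when heights are scaled to the totals of the blocked controls.

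**Figure D4:**
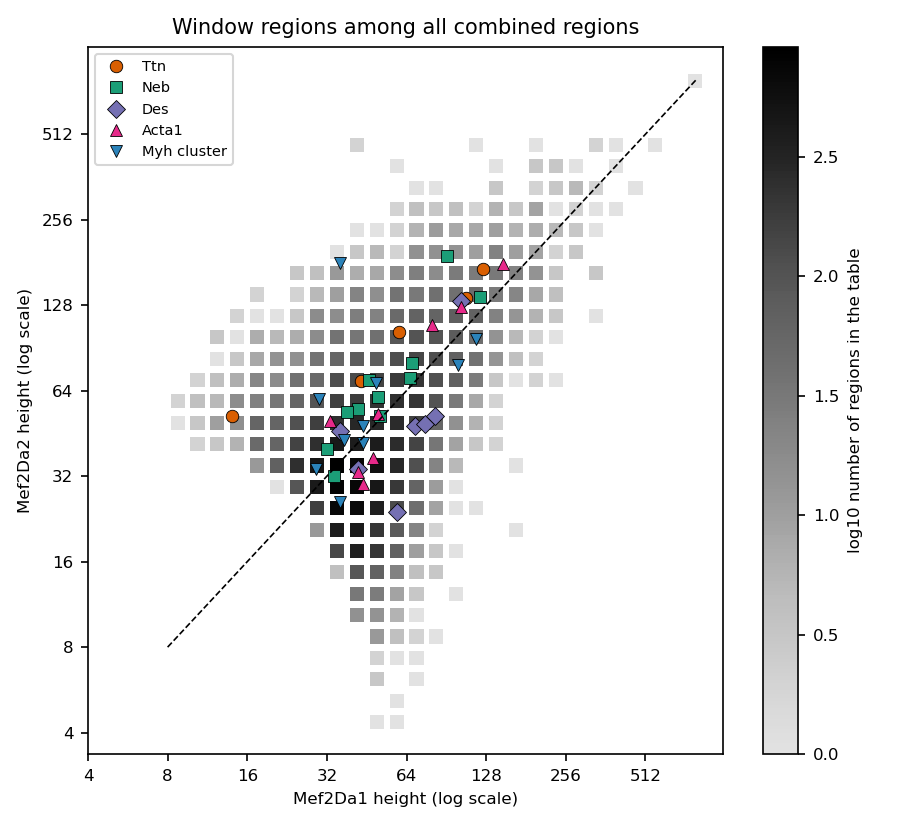
Mef2Da2 height against Mef2Da1 height (both log scales) for the window regions (coloured symbols by window) over all 19749 combined regions (grey squares, darker where more regions fall), with equal heights dashed. The myosin region at 36 and 180 and the Ttn region at 14 and 52 lie farthest above the line.

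In the peak lists, 22 of 25 Mef2Da1 peaks in the windows overlapped a Mef2Da2 peak by at least 1 bp (88.0%, exact 95% binomial interval 68.8 to 97.5, against 61.6% of the whole list). Of the Mef2Da2 peaks, 24 of 36 overlapped a Mef2Da1 peak (66.7%, 49.0 to 81.4, against 54.6%). All Mef2Da1 peaks of the Ttn, Neb and myosin windows (3, 6 and 5) had a Mef2Da2 partner, and the 3 without were 2 at Des and 1 at Acta1. The 12 Mef2Da2 peaks without a partner were spread over all windows, with 5 at Neb, 3 in the myosin cluster, 2 at Ttn and 1 each at Des and Acta1. Median height was 69 for Mef2Da1 peaks in the windows and 57 in the whole list, and 60.5 and 56 for Mef2Da2.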

How the data were processed

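ChIP-seq libraries of 4 samples, grouped by the antibody named in the labels, were read from the authors' 2 peak lists and 1 combined table. The submitters' processing notes name BWA 0.5.9 and the build mm9. Peak caller, filters and depth: not given in the sources used here. Per the labels' protocols, chromatin was digested with MNase and sonicated. Per the file headers, the deposited table gives a coverage signal (height, not scaled to depth) and a −log10 p for each region and library. The deposited −log10 p of blocked libraries was treated as a score, since some values were below 0. Names of the samples' own peak lists tied table columns to samples.

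Members and lists were chosen with earlier results of these data known. Named regions were up to 6 a window by summed −log10 p of both isoforms, all regions of windows with 6 or fewer, and the largest ratios toward either isoform; the others named in full or in brackets (in Des, Acta1 and the myosin cluster) were chosen after their values were seen. Peak starts were converted to 1-based, and table coordinates are printed as given. Ratios used a pseudocount of 1, unscaled against blocked controls and scaled to total height between isoforms. Overlap and scaling code was tested on simulated data. Tools were pandas 2.3.3 and NumPy 2.4.6 under Python 3.11.15, with SciPy 1.17.1 for intervals and Matplotlib 3.10.9 for plots. No mm9 genome or annotation was used here; RefSeq GRCm38.p6 gave gene order, strand, gene length and promoter sequence.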

Additional observations from a re-analysis of the deposited data

How the results depend on the processing

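Of 28 alternative values, 16 stayed within the bound set (1.5 times a count, or the 95% interval of a share or median) and 12 moved. Most are counts or shares, which cannot change sign; the 5 that could, medians over all 41 regions, did not, while the median of the Des window alone went from −0.49 to 0.08 when scaled to the blocked controls' totals. Without the 50 kb margins, the windows held 22 regions, 12 Mef2Da1 peaks and 18 Mef2Da2 peaks, and at a −log10 p of 10 or more they held 21, 13 and 17, fewer by construction in both cases. Regions with Mef2Da1 and Mef2Da2 at least 2-fold over their blocked controls made up 22.0% and 34.1% with total scaling and 22.0% and 39.0% with median scaling, which by construction remove any general difference between open and blocked antibody. The median log2 ratio of Mef2Da2 to Mef2Da1 was 0.445 scaled to the median ratio and 0.855 scaled to the blocked controls' totals, an alternative chosen after seeing the data. Depth, which is unknown, limits all comparisons between libraries. No paired analysis was possible because each group had 1 library, and for the same reason no replicate could be left out.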
